A study of Homo sapiens with 8 samples.

Results

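Actin filaments and the proteins that bind and pull on them were examined through 10 genes: the cytoplasmic actins ACTB and ACTG1, the crosslinkers ACTN1 and FLNA, the tropomyosins TPM1 and TPM2, the myosin light chain gene MYL9, and the calponin family genes CNN1, CNN2 and TAGLN. They were taken by gene name from the gene tables of all 8 libraries, as 10 of 60649 gene identifiers, of which 19960 are protein-coding. These genes were selected on these same data, because ACTB stood higher in UF1hypo cells after UHRF1 knockdown, so their values in that comparison are given as a description, with no test.

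PolyA RNA was sequenced from HCT116, a cell line of human colorectal cancer, and from UF1hypo, a single clone derived from it in which exon 4 of one UHRF1 allele had been removed with CRISPR-Cas9 and Cre. UHRF1 brings the DNA methyltransferase DNMT1 to newly copied DNA. Stable lentiviral pools selected with puromycin expressed a hairpin that targets UHRF1 (shUHRF1) or the control hairpin shScr, which gave 4 groups of 2 libraries: HCT116 shScr, HCT116 shUHRF1, UF1hypo shScr and UF1hypo shUHRF1. All 4 groups therefore share a lentiviral infection and puromycin selection, and both UF1hypo groups share the deleted allele and the history of 1 clone. The methods give a pair of harvest times after infection without assigning them to these libraries, and the 2 libraries of a group are not described as separate cultures, so p-values here measure only the spread between libraries.

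Actin is a globular protein that polymerises into filaments, and every cell uses the beta and gamma forms encoded by ACTB and ACTG1 for shape, movement and division. Tropomyosins lie along the filament, alpha-actinins and filamins tie filaments to each other, and non-muscle myosin II, switched on through its regulatory light chain, pulls on them. Many of these genes are known targets of serum response factor (SRF) and its actin-sensing coactivators MRTFA and MRTFB, which bind a short element called the CArG box. ACTB is also widely used as a reference gene in qPCR, and beta-actin was the internal control of the qPCR in this study. The expression qPCR that the study describes was made on cells treated with inhibitors, not on the knockdown cells examined here.

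ACTB and ACTG1 encode almost the same protein, so it matters how far sequencing can separate them. The coding sequences, each 1128 bases with the stop codon, differed at 99 positions (91.2% identity), and their longest identical run was 59 bases. The first 60 coding bases of each, which lie in coding exons on the minus strand of GRCh38 at chr7:5529598-5529657 for ACTB and chr17:81512295-81512354 for ACTG1, show the pattern, with the 10 positions at which they differ in capitals.
ACTB: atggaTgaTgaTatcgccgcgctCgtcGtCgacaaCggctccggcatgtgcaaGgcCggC
ACTG1: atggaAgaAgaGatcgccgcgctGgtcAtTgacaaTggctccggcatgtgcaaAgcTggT
Of all 50-base windows of the ACTB transcript, 0.567% also occurred in the ACTG1 transcript, and of all 100-base windows none did (0 of 1713). The 33 annotated pseudogenes named after ACTB or ACTG1 summed to between 5.77 and 23.5 TPM (a transcript level scaled for gene length to the same total in every library, not the tropomyosin genes of that name), against at least 2147 for ACTB itself. In UF1hypo shUHRF1 that sum was 23.5 in library 1 and 9.38 in library 2, and whether reads were shared between the copies was not tested.

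The CArG box was searched for in RefSeq promoter windows (GRCh38.p14, 250 bases before to 50 after each start), which had an entry for 7 of the 10 genes. ACTB, TAGLN and MYL9 had none. Over all 35116 windows 1.29% held a CArG box. The pattern searched for is the same on both strands, although a single match, as in FLNA and ACTN1, need not be. A CArG box was present in 1 window each of ACTG1, CNN2, FLNA and ACTN1, and in no window of TPM1, TPM2 and CNN1. The stretches below give 30 bases on each side of the element, in capitals, which begins 94 bases before the start in ACTG1, 89 in CNN2, 94 in FLNA and 171 before an inner start of ACTN1. They lie at chr17:81512854-81512923 (minus strand, in an intron of longer ACTG1 transcripts), chr19:1026489-1026558 (plus strand, before CNN2), chrX:154374689-154374758 (minus strand, before FLNA and over an exon annotated on the other strand) and chr14:68977698-68977767 (minus strand, in an ACTN1 intron).
ACTG1: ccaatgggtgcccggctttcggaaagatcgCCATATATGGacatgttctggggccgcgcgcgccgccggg
CNN2: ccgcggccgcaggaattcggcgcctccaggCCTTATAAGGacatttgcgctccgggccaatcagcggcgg
FLNA: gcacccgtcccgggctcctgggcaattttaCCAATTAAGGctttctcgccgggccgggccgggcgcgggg
ACTN1: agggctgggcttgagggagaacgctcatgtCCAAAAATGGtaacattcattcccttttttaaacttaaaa
The ACTG1, CNN2 and FLNA windows were also rich in CG dinucleotides, with 50, 38 and 47 against a median of 14 over all windows, whereas the ACTN1 window with the element held 8. These matches are a description of the sequence, and neither factor binding nor DNA methylation was measured here.

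UHRF1 itself, the target of the hairpin, had a TPM of 87.5 and 98.4 with shScr against 31.7 and 32.7 with shUHRF1 in HCT116 cells, and 47.3 and 50.6 against 34.1 and 21.1 in UF1hypo cells. Both knockdown libraries lay below both controls in each line. Depth, recovered as aligned bases, was between 5.42 and 7.83 gigabases, and without read counts in the tables the number of reads behind a single gene is unknown. The 2 UF1hypo shUHRF1 libraries stood apart from the other pairs: their difference followed the GC content of the transcripts (Spearman's rho 0.814 across 13781 genes, which are not independent replicates), against −0.508 in UF1hypo shScr, −0.042 in HCT116 shScr and −0.068 in HCT116 shUHRF1. Each value below is therefore given for both libraries. Of 7 epithelial markers 6 were above 1 TPM in every library, KRT8 between 1539 and 5035, and VIL1 was at or near 0. Of 10 smooth muscle and fibroblast markers 6 stayed below 1 TPM in every library, among them ACTG2 and LUM, which were listed at 0 throughout.

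The actin genes were among the most abundant protein-coding transcripts. ACTG1 (ENSG00000184009.13, chromosome 17, 81509413 to 81523847, minus strand, GENCODE version 44 on GRCh38) had a TPM of 4932 and 5215 with shScr against 5084 and 4635 with shUHRF1 in HCT116 cells, and 5108 and 5344 against 6408 and 4843 in UF1hypo cells. The knockdown pair in UF1hypo thus lay on either side of its controls. ACTB (ENSG00000075624.17, chromosome 7, 5526409 to 5563902, minus strand) had a TPM of 2344 and 2209 with shScr against 2388 and 2252 with shUHRF1 in HCT116 cells, and 2147 and 2244 against 4728 and 3565 in UF1hypo cells. Both UF1hypo shUHRF1 libraries were above every other library, and the other 6 lay within 2147 to 2388.

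As group means, ACTB was 2277 ± 95.5 TPM (SD, n = 2 libraries in each group) with shScr and 2319.9 ± 96.1 with shUHRF1 in HCT116, and 2196 ± 68.5 against 4147 ± 822 in UF1hypo, a ratio of 1.89 there. ACTB ranked between 30 and 43 among protein-coding genes in the first 3 groups and at 14 and 16 in UF1hypo shUHRF1. ACTG1 ranked between 8 and 16 in every library.

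The ratio of the actins to each other changed less between the UF1hypo shUHRF1 libraries than either gene did. ACTB over ACTG1 was 0.475 and 0.424 with shScr against 0.470 and 0.486 with shUHRF1 in HCT116 cells, and 0.420 and 0.420 against 0.738 and 0.736 in UF1hypo cells. ACTB therefore made up 42.5% and 42.4% of the summed TPM of both genes in the last group, and between 29.6% and 32.7% in the other 6 libraries. Both transcripts have a like GC content, 55.2% for ACTB and 54.7% for ACTG1, and the part of GC content in this ratio was not tested. The 10 genes together took between 0.809% and 0.892% of all TPM in the other 6 libraries and 1.31% and 0.993% in UF1hypo shUHRF1, of which the 2 actins were 85.3% and 84.7%.

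**Figure D1:**
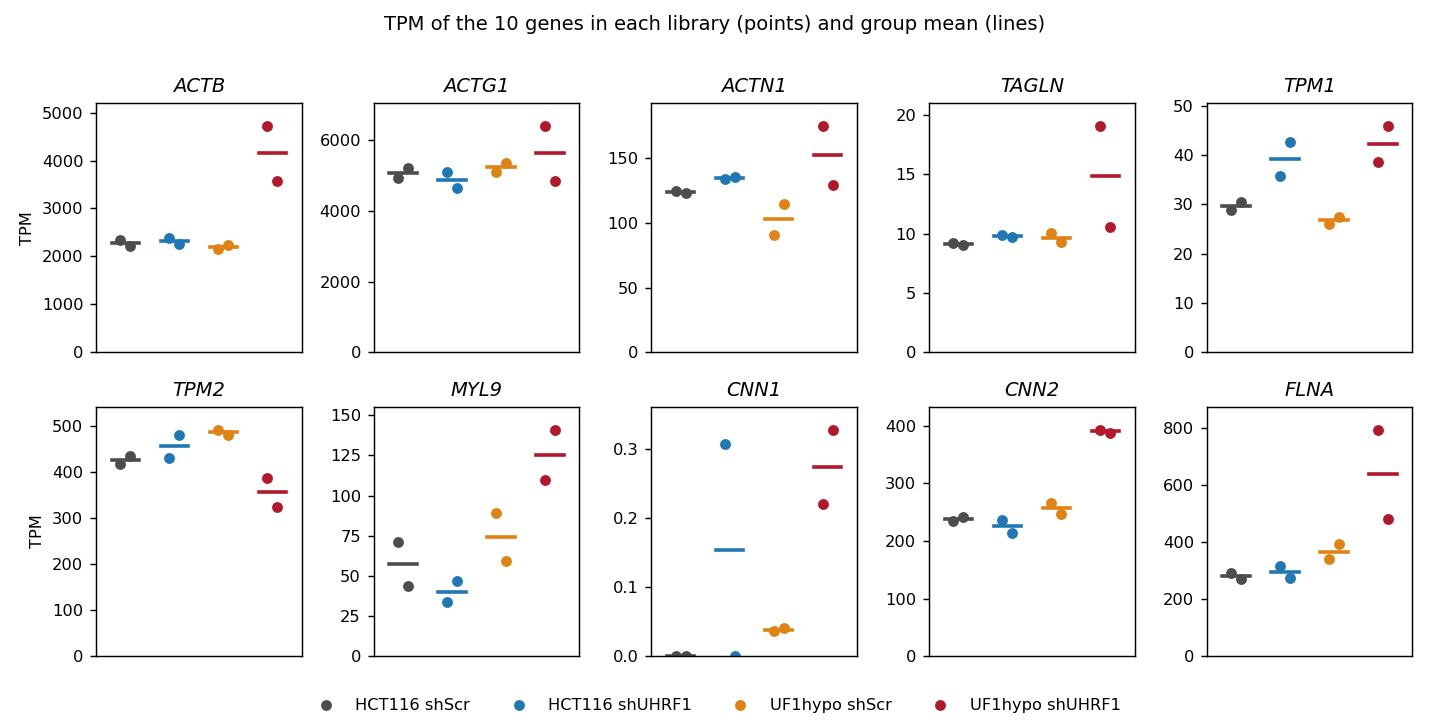
TPM of each of the 10 genes (one panel per gene, vertical axis in TPM from 0) in the 8 libraries, with points for libraries and lines for group means (n = 2). ACTB and CNN2 in UF1hypo shUHRF1 lie above all other libraries, ACTG1 overlaps them, TPM2 lies below, and CNN1 never reaches 1 TPM.

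Among the crosslinkers, FLNA (ENSG00000196924.19, chromosome X, 154348524 to 154374634, minus strand), whose product holds filaments in a loose network and links them to membrane receptors, had a TPM of 292 and 273 with shScr against 317 and 274 with shUHRF1 in HCT116 cells, and 341 and 393 against 796 and 481 in UF1hypo cells. The UF1hypo shUHRF1 libraries were the 2 highest of the 8, and library 1 stood well above library 2. ACTN1 (ENSG00000072110.16, chromosome 14, 68874128 to 68979440, minus strand), a non-muscle alpha-actinin of stress fibres and adhesions, had a TPM of 125 and 123, 134 and 135, 91.0 and 115, and 175 and 129.6 in HCT116 shScr, HCT116 shUHRF1, UF1hypo shScr and UF1hypo shUHRF1. Library 2 of UF1hypo shUHRF1, at 129.6, lay above both UF1hypo controls and below both HCT116 shUHRF1 libraries.

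The tropomyosins went opposite ways in UF1hypo. TPM1 (ENSG00000140416.23, chromosome 15, 63042632 to 63071915, plus strand) had a TPM of 28.9 and 30.6 with shScr against 35.7 and 42.7 with shUHRF1 in HCT116 cells, and 26.0 and 27.5 against 38.6 and 46.0 in UF1hypo cells. Both knockdown groups lay above their own controls. TPM2 (ENSG00000198467.16, chromosome 9, 35681992 to 35690056, minus strand) had a TPM of 418 and 435, 431 and 482, 493 and 482, and 388 and 325 in that order, so that UF1hypo shUHRF1 held the 2 lowest values. The ratio of TPM2 to TPM1 was 14.5 and 14.2 with shScr against 12.1 and 11.3 with shUHRF1 in HCT116 cells, and 18.9 and 17.5 against 10.1 and 7.07 in UF1hypo cells.

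MYL9 (ENSG00000101335.10, chromosome 20, 36541497 to 36551447, plus strand), a regulatory light chain of smooth muscle and non-muscle myosin II, was the tested member whose control libraries lay farthest apart in relative terms. Its TPM was 71.2 and 43.7 with shScr against 33.7 and 47.0 with shUHRF1 in HCT116 cells, and 89.0 and 59.6 against 109.7 and 141 in UF1hypo cells. The HCT116 groups overlapped and the UF1hypo groups did not.

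In the calponin family, CNN2 (ENSG00000064666.15, chromosome 19, 1026586 to 1039068, plus strand), a calponin of non-muscle cells, gave the closest pair of UF1hypo shUHRF1 libraries. Its TPM was 234 and 241 with shScr against 236 and 215 with shUHRF1 in HCT116 cells, and 267 and 248 against 394 and 387 in UF1hypo cells. TAGLN (ENSG00000149591.17, chromosome 11, 117199370 to 117207464, plus strand), which encodes transgelin, a marker of smooth muscle, had a TPM of 9.22 and 9.04 with shScr against 9.88 and 9.70 with shUHRF1 in HCT116 cells, and 10.03 and 9.28 against 19.1 and 10.5 in UF1hypo cells. The higher TAGLN mean of that group, 14.8 ± 6.07, rested on library 1. CNN1 (ENSG00000130176.8, chromosome 19, 11538767 to 11550323, plus strand), the smooth muscle calponin, was listed at 0 in 3 libraries and at no more than 0.327 in any, and so was not tested. CNN2 was thus 20.6 to 36.7 times as abundant as TAGLN per unit length, and the smooth muscle form was at or near 0.

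Differences were fitted in a single limma model on log2(TPM + 1) over the 4 groups, a scale that compresses differences at low TPM. All 4 groups share 1 estimate of spread, so each interval and p-value also carries the spread of the UF1hypo shUHRF1 pair. A gene was tested when its TPM was above 1 in at least 1 library of the comparison, and called when it passed both thresholds of the study, a Benjamini-Hochberg adjusted p below 0.05 and a log2 fold change of more than 1 in size. For any single gene, an exact permutation test of 2 libraries against 2 cannot give a two-sided p below 0.333.

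UHRF1 knockdown in HCT116, which was not used to choose the genes, left none of the 9 tested members called by limma, against 0.0708% of all 12704 genes tested, and none had an unadjusted p below 0.05. The log2 fold change was 0.03 for ACTB (95% interval −0.32 to 0.37, adjusted p = 1.00), −0.06 for ACTG1 (−0.41 to 0.28) and 0.06 for FLNA (−0.45 to 0.57). The lowest adjusted p was that of TPM1, 0.820, with a log2 fold change of 0.38 (−0.02 to 0.78). The largest difference was −0.48 for MYL9 (−1.14 to 0.19, adjusted p = 0.922), and its interval extends past 1 in size. For the remaining 4 genes, ACTN1, TAGLN, TPM2 and CNN2, the values lay between −0.08 and 0.12. The knockdown libraries lay above both controls for ACTN1, TAGLN and TPM1, 3 of 9 members, and below both for none, against 20.1% and 29.3% of all genes tested. The median over the 9 members was 0.06, against −0.03 over all genes tested. These calls depend on the shared spread. With the 4 HCT116 libraries alone limma called 0.701% of all genes, and 18.4% had an unadjusted p below 0.05, against 6.38% in the shared fit. No member was called with those 4 libraries either.

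UF1hypo shScr against HCT116 shScr asks whether the clone differs from its parent before any knockdown. It shares the UF1hypo shScr libraries with the comparison that chose the genes and is therefore not independent of it. None of the 9 members was called by limma, against 3.54% of 12856 genes tested, and none had an unadjusted p below 0.05. FLNA had a log2 fold change of 0.37 (95% interval −0.14 to 0.88, adjusted p = 0.428), and with the 4 libraries of this comparison alone its adjusted p was 0.0281 at the same fold change, still short of the fold threshold. MYL9 was at 0.38 (−0.29 to 1.04, adjusted p = 0.538), ACTN1 at −0.27 (−0.70 to 0.15, adjusted p = 0.481) and ACTB at −0.05 (−0.40 to 0.29, adjusted p = 0.887, and 0.0038 with median-ratio scaling). The UF1hypo libraries lay above both HCT116 libraries for TAGLN, TPM2, CNN2 and FLNA and below both for ACTN1 and TPM1, 4 and 2 of 9, against 29.1% and 37.2% of all genes tested. Their median was 0.07, against −0.05 over all genes tested.

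In UF1hypo shUHRF1 against UF1hypo shScr, the comparison behind the choice, the mean log2(TPM + 1) difference was 0.90 for ACTB, 0.76 for FLNA, 0.76 for MYL9, 0.64 for TPM1, 0.60 for CNN2, 0.56 for ACTN1, 0.52 for TAGLN, 0.09 for ACTG1 and −0.46 for TPM2. In TPM this is a ratio of group means from 1.89 for ACTB to 0.732 for TPM2. Both knockdown libraries lay above both controls for 7 of the 9 members and below both for 1, where 30.6% and 18.3% of all 13620 genes tested did. No member exceeded a log2 difference of 1, so none could pass both thresholds, which 8.53% of all genes passed. Since the genes were chosen on this comparison, nothing is read from these shares. The median over the 9 members was 0.60, against 0.04 over all genes tested.

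**Figure D2:**
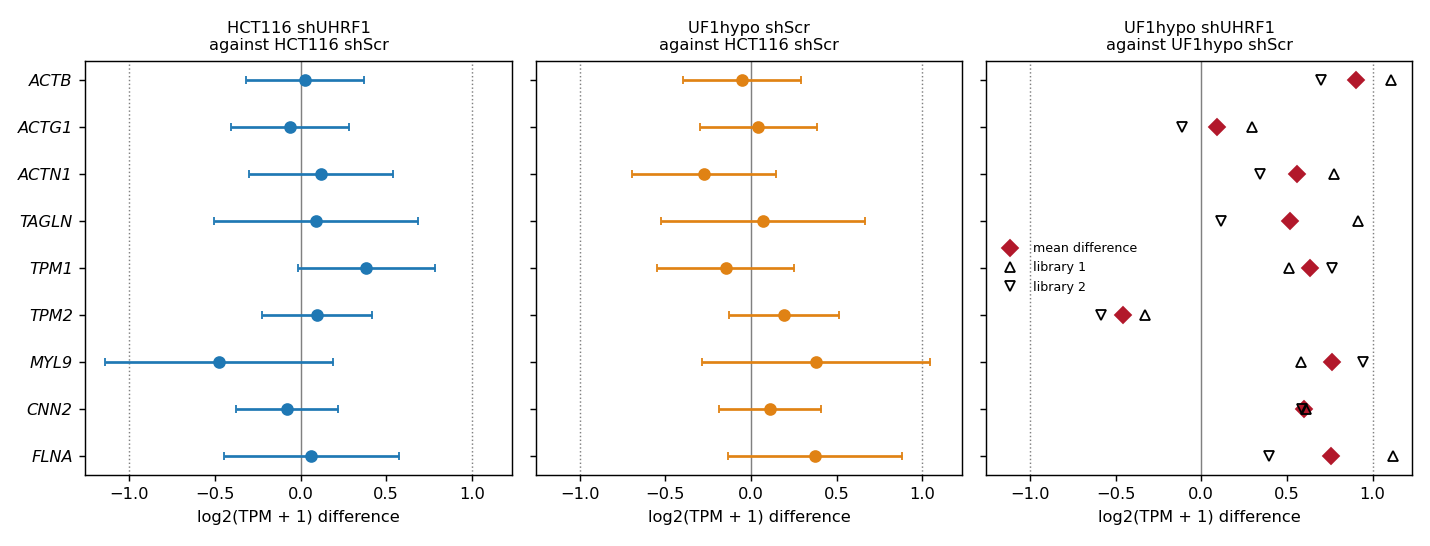
Mean log2(TPM + 1) differences of the 9 members above 1 TPM in 3 comparisons (horizontal axis), with 95% limma intervals in the left and middle panels and the 2 knockdown libraries against the control mean in the right panel. Dotted lines mark a log2 difference of 1. The left and middle intervals all cover 0, while in the right panel both libraries lie to the right for 7 genes, to the left for TPM2 and on both sides for ACTG1.

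The libraries of UF1hypo shUHRF1 did not weigh equally. With library 1 as the only knockdown library the log2 difference was 1.11 for ACTB, 1.12 for FLNA and 0.92 for TAGLN, and with library 2 it was 0.70, 0.39 and 0.12. ACTG1 changed sign between them, at 0.29 and −0.11. CNN2 was at 0.61 and 0.59, and TPM1 (0.51 and 0.76) and MYL9 (0.58 and 0.94) were higher in library 2. Library 1 was the higher one for 7 of the 9 members, all of them with transcripts of at least 54.7% GC, and the lower one for TPM1 (50.9% GC) and MYL9 (60.2% GC). For ACTB the difference between the libraries was 0.41 and for TAGLN 0.80, where the median of all genes in that range of GC content, 53.4% to 56.6%, was 0.24.

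A correction that removed each library's median deviation within 10 bins of GC content and of transcript length lowered all 9 values in UF1hypo, by between 0.10 and 0.37 on the log2 scale. ACTB was then at 0.75, TPM1 at 0.54, MYL9 at 0.46, FLNA and CNN2 at 0.39, ACTN1 at 0.36, TAGLN at 0.33, ACTG1 at −0.06 and TPM2 at −0.60. ACTB stayed above the other members, from which nothing is read, because its rise in this comparison was the reason for the choice. FLNA, the transcript with the most GC (62.3%), moved most.

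**Figure D3:**
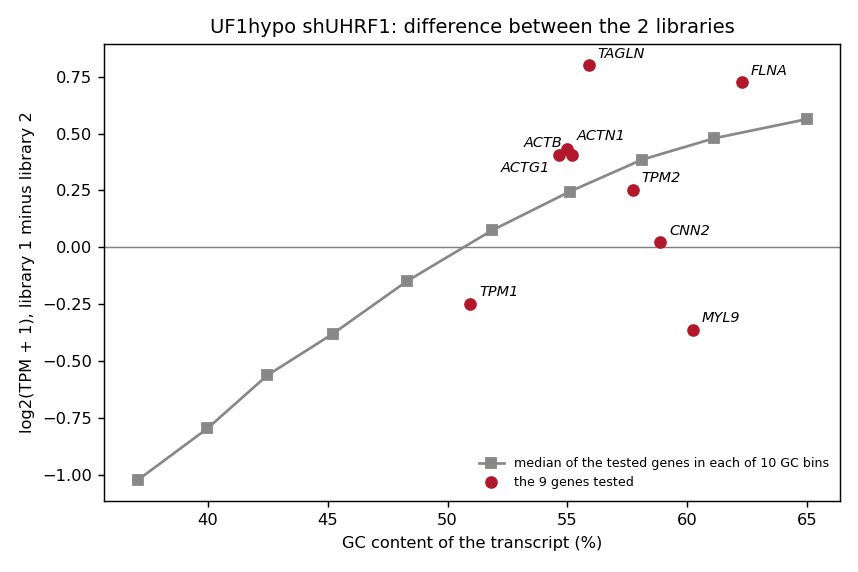
Difference in log2(TPM + 1) between the 2 UF1hypo shUHRF1 libraries (vertical axis, library 1 minus library 2) against GC content of the transcript (horizontal axis, percent), with squares for the median of all tested genes in 10 equal bins and points for the 9 members. The squares rise from −1.02 in the bin of lowest GC to 0.56 in the highest. ACTB, ACTG1, ACTN1, TAGLN and FLNA lie above the line, while TPM1, TPM2, CNN2 and MYL9 lie below it.

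Values of other lists moved beside these genes in UF1hypo shUHRF1. The summed TPM of the 10 smooth muscle and fibroblast markers was 30.5 and 37.1 in UF1hypo shScr against 87.3 and 55.4 in UF1hypo shUHRF1, with 25.5 to 32.5 in HCT116. DES (desmin, an intermediate filament protein of muscle) made up 5.76 and 6.08 against 16.0 and 13.3, and COL1A1 22.5 and 28.5 against 65.5 and 37.7. MYH11, the smooth muscle myosin heavy chain, was at 0.643 and 0.793 against 2.29 and 1.47, and LMOD1, a smooth muscle leiomodin, at 1.06 and 1.28 against 2.76 and 2.29. With PDGFRB these made 5 of the 10 markers for which both knockdown libraries lay above both controls, while ACTG2, LUM, COL1A2, COL3A1 and DCN were at or near 0. The summed TPM of the epithelial markers was 9225 and 9582 in UF1hypo shScr against 13253 and 10217 in UF1hypo shUHRF1. Of these 7 markers CDH1, KRT8, KRT18 and KRT19 lay above both controls in both knockdown libraries, EPCAM lay below both, at 357 and 327 against 174 and 314, and CLDN4 and VIL1 overlapped. Of all genes tested in this comparison, 30.6% lay above both controls and 18.3% below both. The part of these lists in the values of the 10 genes was not tested, and in bulk RNA a change in the share of cells and a change in RNA per cell cannot be told apart.

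ACTB was next set beside 13 other genes that serve as qPCR references. In UF1hypo its log2 difference on knockdown, 0.90, was below that of 1 of them, B2M (0.92), a component of MHC class I whose TPM was 1025 and 1023 in UF1hypo shScr against 1556 and 2410.0 in UF1hypo shUHRF1. The other 12 lay below ACTB, from 0.52 for GUSB to −0.78 for HPRT1. The median of the 13 was −0.09, which put ACTB 0.99 above it. Among the 3 with the smallest absolute difference were TBP (0.00) and SDHA (0.08), and for both the knockdown and control libraries overlapped. TBP, the TATA-binding protein, was at 30.3 and 28.8 TPM with shScr and at 27.5 and 31.9 with shUHRF1.

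The knockdown libraries lay above both controls for 3 of the 13 genes, B2M and GUSB among them, and below both for HPRT1, YWHAZ and PGK1, with 7 genes overlapping. Over all genes tested the shares above and below both controls were 30.6% and 18.3%. The UF1hypo shUHRF1 libraries also disagreed on YWHAZ, which was at 315 and 632 TPM against 776 and 691 in the controls. In HCT116 the ACTB difference on knockdown, 0.03, was 0.15 above the median of the 13 genes, and between UF1hypo shScr and HCT116 shScr it was 0.04 below it. Over all 8 libraries the SD of log2(TPM + 1) was 0.42 for ACTB, below B2M (0.80), HPRT1 (0.53) and YWHAZ (0.46) and above the other 10 genes, of which SDHA (0.12) and TBP (0.14) had the lowest.

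**Figure D4:**
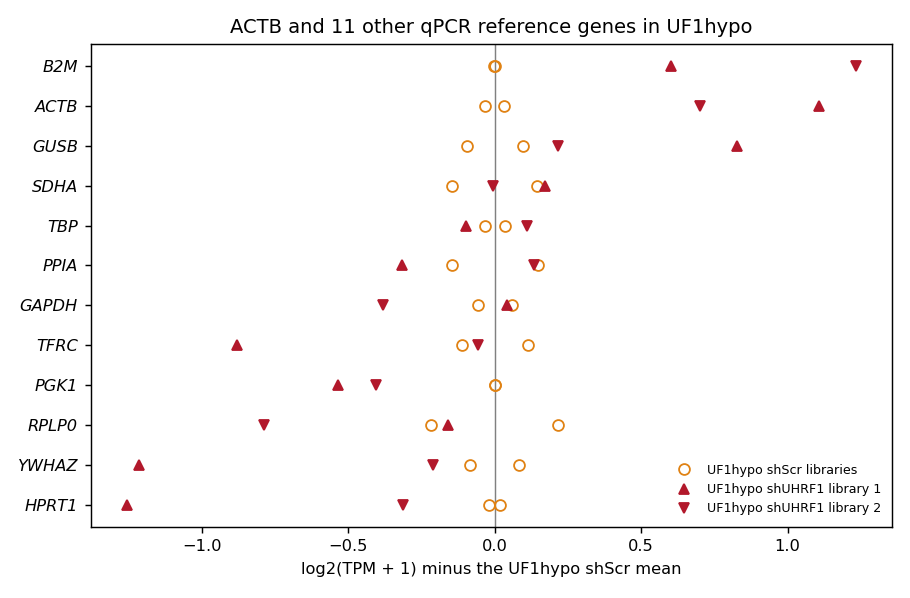
Level of ACTB and 11 of the 13 other qPCR reference genes in the 4 UF1hypo libraries, as log2(TPM + 1) minus the mean of the 2 UF1hypo shScr libraries (horizontal axis), with open circles for shScr and triangles for the 2 shUHRF1 libraries. ACTB and B2M stand to the right in both knockdown libraries, SDHA and TBP stay near 0, and HPRT1 and YWHAZ stand to the left.

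The wider actin machinery was followed in a list of 71 further genes: other actins, alpha-actinins, filamins, tropomyosins and calponin family genes, nucleators, capping and turnover factors, myosin II and its regulators, adhesion proteins, small GTPases and kinases, and SRF with its coactivators. UHRF1 knockdown in HCT116 called 0 of the 62 tested by limma, against 0.0708% of all genes, and 7 had an unadjusted p below 0.05, which 6.38% of all genes tested had. Their median log2 fold change was −0.03, as over all genes tested.

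In UF1hypo shUHRF1 2 of 68 list genes were called, both higher, against 7.39% of all genes tested that were called higher. RHOB, an endosomal small GTPase, had a TPM of 147 and 137 in UF1hypo shScr against 366 and 261 in UF1hypo shUHRF1, and its log2 fold change was 1.12 (standard error 0.19, limma adjusted p = 0.00579). TAGLN3, a transgelin of neural tissue, rose from 0.791 and 0.329 TPM to 3.76 and 2.59, or 1.42 on the log2 scale (standard error 0.28, limma adjusted p = 0.0133). TAGLN3 passed the TPM filter only through UF1hypo shUHRF1, the group in which it was high, so the filter favoured its call. Without library 1 of UF1hypo shUHRF1 RHOB fell short of the fold threshold at 0.87. Without library 2 of UF1hypo shScr neither RHOB nor TAGLN3 was called, while other list genes were. Without library 2 of UF1hypo shUHRF1 9 list genes were called.

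Without the fold threshold, 6 list genes had an adjusted p below 0.05 and were higher, and 1 was lower, against 10.4% and 2.86% of all genes tested. Besides RHOB and TAGLN3 the higher genes included CSRP1 (0.99, adjusted p = 0.00422), a LIM protein of stress fibres, ACTN2 (0.75, adjusted p = 0.0448), the alpha-actinin of muscle at no more than 1.11 TPM, and MYH9 (0.54, adjusted p = 0.0468), the heavy chain of non-muscle myosin IIA. The lower gene was MYL6B, a myosin essential light chain, at 74.1 and 62.3 TPM with shScr and 38.6 and 34.5 with shUHRF1 (−0.88, adjusted p = 0.00902).

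By subgroup, all 5 other alpha-actinins and filamins had both UF1hypo shUHRF1 libraries above both controls. Of these, ACTN2 and ACTN3 passed the TPM filter only through library 1 of UF1hypo shUHRF1, at 1.11 and 1.02 TPM. The filter thus favoured their place in this count and the adjusted p of ACTN2 given above. Of the 9 adhesion and stress fibre genes 7 lay above both controls. The same held for 22 of the 68 list genes in all and for 30.6% of all genes tested. ACTN4, the closest relative of ACTN1, was at 459.8 and 495 TPM with shScr and 1138 and 598 with shUHRF1 (0.79, adjusted p = 0.0828). The 11 nucleation genes had a median of −0.05 and the 13 turnover and capping genes of 0.03, and in neither group was a gene past an adjusted p of 0.05. The other tropomyosins TPM3 and TPM4 were at 0.22 (adjusted p = 0.511) and −0.56 (adjusted p = 0.112). The list's median was 0.08, against 0.04 over all genes tested.

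SRF had a TPM of 45.2 and 45.9 with shScr against 47.4 and 46.8 with shUHRF1 in HCT116 cells, and 36.7 and 41.2 against 52.1 and 32.5 in UF1hypo cells, so the last pair enclosed its controls. The SRF log2 fold change was 0.05 in HCT116 (adjusted p = 1.00), 0.08 in UF1hypo (adjusted p = 0.843) and −0.22 between the control lines (adjusted p = 0.633). MRTFA was at 17.8 and 17.4, 18.2 and 17.7, 19.1 and 22.2, and 41.0 and 28.2 TPM in the same order, with a log2 fold change of 0.70 in UF1hypo (adjusted p = 0.0651), of 0.03 in HCT116 (adjusted p = 1.00) and of 0.22 between the control lines (adjusted p = 0.627). MRTFB was at −0.17 in UF1hypo (adjusted p = 0.658), −0.08 in HCT116 (adjusted p = 1.00) and −0.29 between the control lines (adjusted p = 0.520). MYOCD, the coactivator of smooth and heart muscle, was at or near 0 in every library and was not tested.

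UF1hypo shScr against HCT116 shScr called 1 of 63 list genes by limma, against 3.54% of all genes. GSN, which encodes the filament-severing protein gelsolin, had a TPM of 66.7 and 66.0 in HCT116 shScr and 158 and 182 in UF1hypo shScr, a log2 difference of 1.34 (standard error 0.18, adjusted p = 0.00410). Its adjusted p was 0.0577 without HCT116 shScr library 1, 0.0535 without library 2 and 0.0605 without UF1hypo shScr library 2. At an adjusted p below 0.05 with no fold threshold GSN was the 1 higher gene, and TES (−0.81, adjusted p = 0.0350) and VASP (−0.73, adjusted p = 0.0403), a pair of adhesion and stress fibre proteins, were lower, against 3.41% and 1.36% of all genes tested.

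The difference between the knockdown effects, UF1hypo minus HCT116, was called for 3 of 68 list genes, against 5.09% of 13781 genes tested. It was 1.73 for RHOB (standard error 0.26, limma adjusted p = 0.00911), where HCT116 alone had −0.61 (adjusted p = 0.435), 1.19 for CSRP1 (standard error 0.22, adjusted p = 0.0189), and −1.19 for MYL6B (standard error 0.23, adjusted p = 0.0232), where HCT116 alone had 0.31 (adjusted p = 0.889). For SRF it was 0.03 (adjusted p = 0.973, and −0.012 with FPKM and −0.028 with median-ratio scaling), for MRTFA 0.67 (adjusted p = 0.279) and for MRTFB −0.09 (adjusted p = 0.920). Each of the 3 calls was lost when 1 of several libraries was left out, and the count then ranged from 0 to 12.

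**Figure D5:**
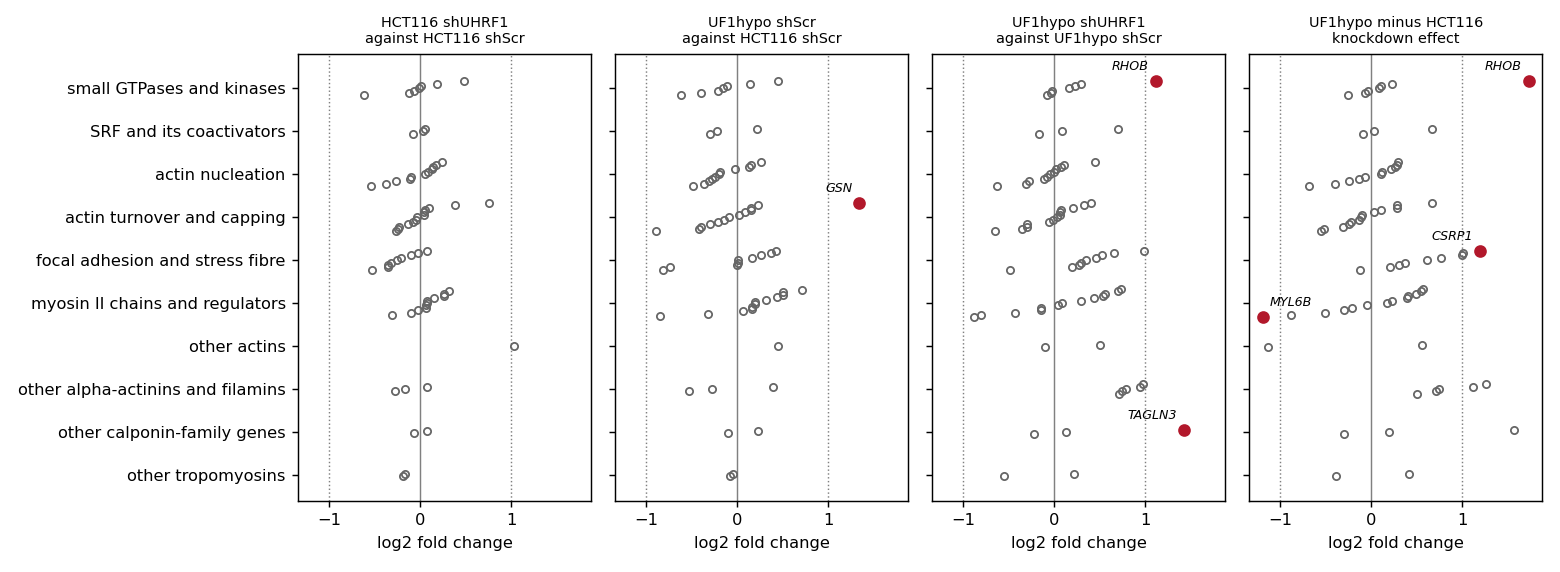
Log2 fold changes (horizontal axis) of the tested genes of the 71-gene actin list by subgroup, in 3 comparisons and in the difference between the knockdown effects. Filled and named points passed both thresholds, open points did not, and dotted lines mark a log2 fold change of 1. No point is filled for HCT116, GSN is for the clone, RHOB and TAGLN3 are for UF1hypo, and RHOB, CSRP1 and MYL6B are for the difference.

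Lastly, the genes whose pattern over the 8 libraries was most like that of ACTB were sought among 8976 protein-coding genes with a mean TPM of at least 10, by the root mean square difference of centred log2(TPM + 1). They were DNASE1 (0.081), SPTAN1 (0.083), SH3BP5L (0.084), MAEA (0.088) and SLC39A13 (0.089). SPTAN1, the non-erythroid alpha-spectrin of the membrane skeleton, had a TPM of 69.0 and 71.7 in UF1hypo shScr against 161 and 118 in UF1hypo shUHRF1. Of the members, CNN2 took rank 168, TAGLN 304, FLNA 408, ACTN1 1109, TPM1 1919, ACTG1 1945, MYL9 4525 and TPM2 5441. The ACTB pattern includes the rise in UF1hypo shUHRF1 for which the genes were chosen, so nothing is read from these ranks. For TAGLN the nearest were KDM6B (0.068), KEAP1 (0.071), XKR8 (0.076), PPP1R37 (0.083) and REXO1 (0.083), and KEAP1 had a TPM of 113 and 123 in UF1hypo shScr against 210.0 and 130.3 in UF1hypo shUHRF1, so that library 2 lay close to the controls as for TAGLN.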

How the data were processed

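RNA-seq of polyA RNA was analysed in 8 libraries from HCT116 and UF1hypo cells. Reads were trimmed with Fastp, aligned to GRCh38 with HISAT2 2.0.4 and quantified with StringTie 2.1.4 by the authors. The deposited coverage values are StringTie's mean read coverage per base of a gene, without scaling for depth, and served only to recover aligned bases. The deposited FPKM values were normalized by the authors for gene length and aligned bases, and the deposited TPM values for gene length, with equal sums over all genes in each library. Genes were matched by identifier to GENCODE version 44 and protein-coding genes kept, with repeated records of an identifier summed. Tests used limma 3.58.1 (R 4.3.3) with moderated variances following the mean, on log2(TPM + 1), with the 4 groups as the only term and 4 residual degrees of freedom before moderation. DESeq2, which the authors used, needs counts and was not run. The 10 genes, the gene lists and the tests were chosen with earlier results of these data known. The fit was checked on simulated data for knockdown in HCT116 and for the clone. The simulated spread was independent and the same in all groups, so the check does not cover the comparisons that use UF1hypo shUHRF1. Named genes were the 10 members, UHRF1, ACTB's nearest and least changed reference genes, called list genes (at most 6 a direction), SRF and its coactivators, and the 5 genes most like ACTB and TAGLN. Some genes that this rule or the lists hold entered the fits and counts and are not reported here. GC content and length came from the main transcript. Tables and figures were made with Python 3.11.15, pandas 2.3.3, numpy 2.4.6, SciPy 1.17.1 and matplotlib 3.10.9. The study's DNA methylation and protein measurements were not used here.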

Additional observations from a re-analysis of the deposited data

Results flagged for a closer look

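Of the 68 actin list genes tested, 3 were called in a limma test of the difference between the knockdown effects, against 5.09% of all 13781 genes tested. As UF1hypo minus HCT116, RHOB differed by a log2 value of 1.73 (adjusted p = 0.00911), CSRP1 by 1.19 (adjusted p = 0.0189) and MYL6B by −1.19 (adjusted p = 0.0232). Each of these calls was lost when 1 of several libraries was left out. For RHOB and CSRP1 both HCT116 shUHRF1 libraries lay below the control mean and both UF1hypo shUHRF1 libraries above it, and for MYL6B the reverse held, although none of the 3 passed the test in HCT116.

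Of the 10 chosen genes, MYL9, CNN2 and TPM2 had both knockdown libraries on one side of the control mean in HCT116 and on the other side in UF1hypo. None of them passed the limma test in HCT116 (adjusted p between 0.922 and 1.00). The difference between the effects was 1.24 for MYL9, 0.68 for CNN2 and −0.55 for TPM2 on the log2 scale. It was not tested, because the UF1hypo values chose the genes, and the HCT116 groups overlapped for all 3. For CNN2, HCT116 shUHRF1 library 1 was at 236 TPM, close to the control mean of 238. How many of all genes tested show such a pattern was not counted, so nothing is read from the number of members.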

How the results depend on the processing

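No member was called in HCT116 shUHRF1 against HCT116 shScr or in UF1hypo shScr against HCT116 shScr under any of the alternatives: a pseudocount of 0.1, no TPM filter, FPKM, median-ratio scaling, the 4 libraries alone, no variance trend, the largest record of an identifier, correction for GC content and length, the replicate number as a block, or each library left out (a lone library is then assumed to vary like the other groups). In UF1hypo, where the members were not tested, the number with a log2 difference above 1 ranged from 0 to 2 when a library was left out, with ACTB and FLNA above it without library 2 of UF1hypo shUHRF1 and MYL9 (1.05) without library 1 of UF1hypo shScr. ACTB exceeded the median of the other reference genes there by 0.76 to 1.21. List genes called numbered 1 in HCT116 (0 in the main analysis) with the 4 libraries alone and 1 with the GC correction, ACTA2 both times. In UF1hypo (2) there were 4 with the smaller pseudocount, 1 with FPKM, 0 with the 4 libraries alone and 1 to 9 when a library was left out. For the clone (1) they ranged from 0 to 1 and for the difference of effects (3) from 0 to 12, with 6 after the GC correction. The cause of these shifts was not tested.

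The replicate numbers did not pair the libraries: same-numbered deviations correlated at −0.402 between the UF1hypo groups and at −0.029 to 0.055 between the others. With the replicate block the list calls were 0, 2, 1 and 4 for HCT116, UF1hypo, the clone and the difference, the last adding TAGLN3 (log2 1.56, adjusted p = 0.0316). There too TAGLN3 passed the TPM filter only through UF1hypo shUHRF1.

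Of 658 single-gene values under alternatives 21 changed sign. On knockdown in HCT116, with a library left out, ACTB ranged from −0.016 (also −0.015) to 0.070, ACTG1 from −0.13 to 0.0034, FLNA from −0.043 to 0.17 and MRTFB from −0.28 to 0.12, with MRTFB at 0.015 after the GC correction. For the clone, ACTB was at 0.0038 with median-ratio scaling, and ACTG1 at −0.032, TAGLN at −0.0044 and CNN2 at −0.038 with the GC correction. On knockdown in UF1hypo, MRTFB ranged from −0.35 to 0.014 and SRF from −0.25 through −0.00037 to 0.41 with a library left out, and SRF was at −0.22 with the GC correction. For the difference of effects, SRF was at −0.012 with FPKM, −0.028 with median-ratio scaling, −0.29 with the GC correction and from −0.30 (also −0.048) to 0.37 with a library left out, and MRTFB ranged from −0.29 to 0.11 (also 0.092). The cause was not tested. Since the tables hold no counts, low values such as those of CNN1, TAGLN3 and ACTN2 have an unknown counting error.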

Other observations

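ACTA2, the smooth muscle alpha-actin, was the actin list gene with the largest log2 fold change on knockdown in HCT116, and it was singled out after its values were seen. Its TPM was 10.7 and 7.74 with shScr against 18.3 and 21.2 with shUHRF1 in HCT116 cells, and 12.2 and 13.4 against 13.3 and 10.5 in UF1hypo cells. Both HCT116 knockdown libraries lay above the other 6. The log2 fold change was 1.03 in HCT116 (limma adjusted p = 0.184, 0.00952 with the 4 HCT116 libraries alone, 0.0197 after the GC correction and up to 1.00 with a library left out) and −0.10 in UF1hypo (adjusted p = 0.804), and the difference between these effects, −1.13, had an adjusted p of 0.0876. Over the alternatives that p ranged from 0.0145 to 0.327, and the difference passed both thresholds after the GC correction (−1.25, adjusted p = 0.0145) and without UF1hypo shUHRF1 library 1 (−1.29, adjusted p = 0.0393).

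CALD1, which encodes the filament-binding protein caldesmon and was likewise singled out afterwards, had no overlap between the groups in any of the 3 comparisons, and passed the test in none. Of all genes tested, 20.1% lay above and 29.3% below both controls in HCT116. These shares were 29.1% and 37.2% for the clone, and 30.6% and 18.3% in UF1hypo. The TPM of CALD1 was 59.5 and 59.4 with shScr against 59.8 and 64.9 with shUHRF1 in HCT116 cells, a log2 fold change of 0.07. In UF1hypo cells it was 34.2 and 30.9 against 13.8 and 23.7. The log2 fold change was −0.85 between the control lines (limma adjusted p = 0.0850) and −0.81 on knockdown in UF1hypo (adjusted p = 0.0585), and over the alternatives these p ranged from 0.00111 to 0.442 and from 0.00123 to 0.301.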
